A study of Sus scrofa with 8 samples.

Results

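Changes that set 15 days of culture apart from both 7 and 30 days in the same direction were examined in cultured pig oviductal epithelial cells. The arrays labelled 15 days were compared with the mean of the 7-day and 30-day group means. A gene counted as transient only where this contrast passed the test and 15 days also differed in the same direction from 7 days and from 30 days, each taken alone. Tests were made with limma's linear model, and passing means an adjusted p under 0.05 (Benjamini-Hochberg, across the 10901 genes tested); such a gene is said to be called. By this rule 169 of 10901 genes were transient, 90 higher and 79 lower at 15 days. Both single comparisons use the same 15-day arrays, so an array error at 15 days would enter both in the same direction. The contrast used 6 of the 8 arrays of the series, and all 8 supplied the estimate of spread.

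The cells came from the oviducts of crossbred landrace gilts (young female pigs) of about 9 months with regular estrous cycles, were released with collagenase and trypsin, and were grown in a serum-containing medium. Cells were pooled, and RNA was taken at 24h, 7 days, 15 days and 30 days, with 2 arrays at each time. No group had another treatment or genotype, and the earliest time served as the start of culture rather than as an untreated control. Both arrays of a time are labelled as biological replicates, with no word on whether they were separate pools or cultures, so p-values measure only the spread between these samples. All values are log2 expression values, so a difference of 1 is a doubling or a halving of the array signal, and levels of different genes are not compared.

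Defining markers were checked before the results. OVGP1, the oviduct-specific glycoprotein, read 10.46 and 11.78 at 24h and between 3.31 and 3.88 on the 6 later arrays. EPCAM, an epithelial adhesion molecule, read 9.64 and 9.38 at 7 days, 7.69 and 8.0 at 15 days and 3.23 and 3.38 at 30 days. The keratin KRT8 stayed between 10.89 and 11.93 on all arrays. KRT18, another keratin, read 9.29 and 9.31 at 7 days, 9.16 and 9.32 at 15 days and 7.70 and 7.17 at 30 days. Group means from 7 to 15 days fell in MUC1 (8.20 to 5.41) and rose in KRT19 (11.68 to 11.92). The mean over 7 epithelial markers was 8.26 and 8.44 at 7 days. It fell to 7.64 and 7.84 at 15 days and to 6.70 and 6.50 at 30 days. The mean over 5 fibroblast markers moved the other way, from 8.21 and 8.19 at 7 days to 8.96 and 8.87 at 15 days and 9.50 and 9.40 at 30 days. Its members were mixed. From 7 to 15 days the group means of LUM (6.51 to 8.20), COL1A1 (11.04 to 12.14) and COL1A2 (9.01 to 10.86) rose. Those of DCN (5.29 to 4.47) and THY1 (9.15 to 8.91) fell. At 15 days EPCAM, the epithelial mean and the fibroblast mean thus lay between their values at 7 and 30 days. KRT8 was highest at 15 days, at 11.77 and 11.93, while KRT18 at 15 days was close to its 7-day values. By the rule, 0 of the 32 measured markers of the 7 cell types examined were transient. Over all genes tested, 0.826% were higher and 0.725% lower than both neighbours, so 0 of 32 is near those shares. In these bulk samples, fewer cells of a type and less RNA per cell cannot be told apart. The median of all genes tested was 0.13 higher at 15 than at 30 days and 0.0016 higher than at 7 days.

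Cells make cholesterol from acetyl-coenzyme A through the mevalonate pathway, then squalene and lanosterol. The genes of the pathway are controlled together by sterol-regulated transcription factors (the SREBP family), which INSIG proteins hold back in the endoplasmic reticulum when sterol is plentiful. The same factors also drive fatty acid synthesis and desaturation. Prostaglandins, which the oviduct produces and which act on its muscle and on embryo transport, are made from arachidonic acid by the cyclooxygenases PTGS1 and PTGS2.

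Of the 40 lists examined, cholesterol synthesis had the most transient genes, and all of them dipped at 15 days. The cholesterol list held 32 genes, of which 16 were measured here. Of these 16, 14 were lower at 15 days than at both 7 and 30 days and 0 were higher. Over all genes tested, 0.725% were lower than both neighbours and 0.826% were higher. The median contrast of the list was -1.15, against -0.02 over all genes, and the 14 genes spanned -1.70 to -0.61. The list was written with earlier results of these arrays known, so its count is not independent evidence of its direction. In all 14, both 15-day arrays lay below all 4 arrays of 7 and 30 days. The same held for all 79 lower genes, so this separation comes with the rule and adds no support.

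Measured genes from the entrance of the pathway to its last steps took part, though not every step was measured. At its entrance, ACAT2, which joins acetyl-coenzyme A units, read 10.40 and 10.31 at 7 days, 8.77 and 8.76 at 15 days and 9.79 and 9.80 at 30 days, a contrast of -1.31 ± 0.09 (SE). HMGCS1, which makes the precursor of mevalonate, read 10.71 and 10.61, then 9.45 and 9.44, then 10.44 and 10.62 (contrast -1.15 ± 0.10). The mevalonate kinase MVK read 7.54 and 7.76, then 6.11 and 6.09, then 6.94 and 7.05 (contrast -1.22 ± 0.10). The paired arrays at 15 days were closely alike in each of these genes, which the rule had picked for differing from both neighbouring times. PMVK, the next kinase, had the smallest dip of the 14 (contrast -0.61 ± 0.09), from 5.72 and 5.63 to 5.08 and 5.05 and back to 5.63 and 5.71. FDPS, which makes farnesyl diphosphate, fell from 9.72 and 9.81 to 8.64 and 8.70 and stood at 9.54 and 9.75 at 30 days (contrast -1.04 ± 0.10).

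The sterol branch behaved the same way. SQLE, the squalene epoxidase, read 9.44 and 9.24 at 7 days, 8.20 and 8.11 at 15 days and 9.34 and 9.29 at 30 days (contrast -1.18 ± 0.10). CYP51, the lanosterol demethylase, read 9.97 and 9.81, then 8.70 and 8.58, then 9.68 and 9.67 (contrast -1.14 ± 0.10). SC5D, a late sterol desaturase, read 9.29 and 8.97, then 8.04 and 8.02, then 9.39 and 9.52 (contrast -1.26 ± 0.11). The 15-day arrays also read below the 24h arrays, which were 8.71 and 8.56 for SQLE, 9.15 and 9.04 for CYP51 and 8.43 and 8.31 for SC5D; this difference passed the test in SQLE and CYP51 and not in SC5D (adjusted p = 0.074). Other enzymes of the branch, MSMO1 (contrast -1.15 ± 0.10), NSDHL (-1.07 ± 0.10), HSD17B7 (-1.23 ± 0.11) and TM7SF2 (-0.90 ± 0.10), were lower than both neighbours too.

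Beyond the enzymes, INSIG1, the sterol-sensing brake that is itself induced by the factors it restrains, had the largest dip of the list. It read 9.67 and 9.51 at 7 days, 7.88 and 7.78 at 15 days and 9.32 and 9.63 at 30 days (contrast -1.70 ± 0.14, adjusted p = 0.000216). STARD4, a carrier of cholesterol between membranes, read 8.0 and 7.47, then 5.77 and 5.50, then 6.63 and 6.50 (contrast -1.51 ± 0.15). The remaining measured genes, both of which act in lowering cell cholesterol, did not follow. ABCA1, the cholesterol exporter, read 7.66 and 7.28, then 7.40 and 7.17, then 8.19 and 8.17, with a contrast of -0.54 ± 0.14 and an adjusted p of 0.064. MYLIP, a ubiquitin ligase for lipoprotein receptors, read 5.37 and 5.53, then 6.12 and 6.07, then 6.69 and 6.71, so that it was higher at 15 than at 7 days and lower than at 30 days.

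**Figure D1:**
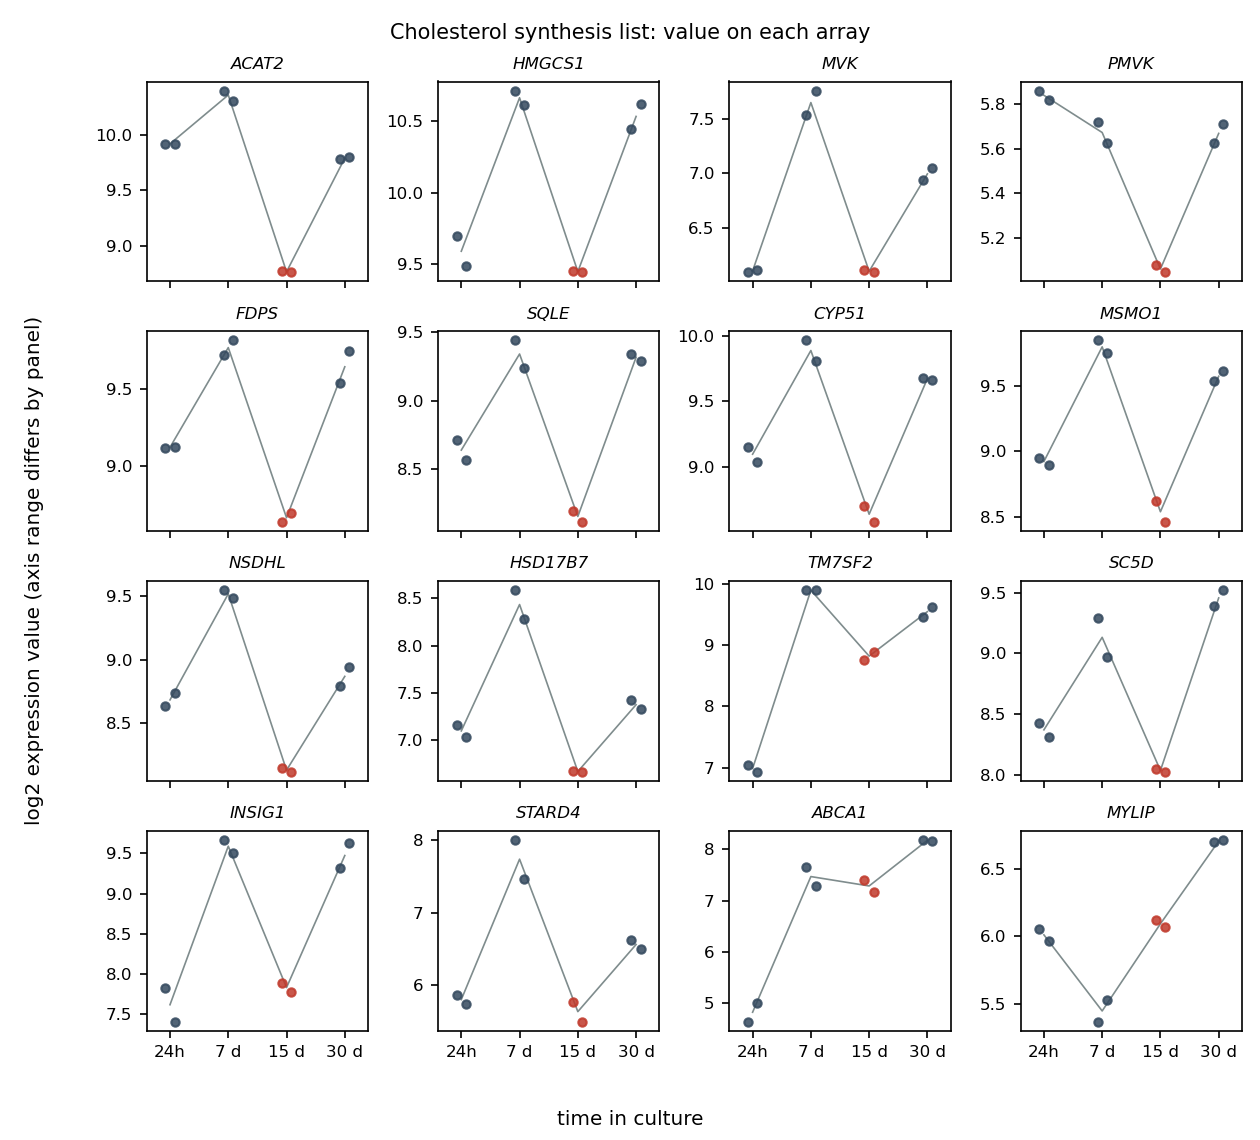
Log2 expression value (vertical axes, range set per panel) by time in culture for the 16 measured genes of the cholesterol synthesis list; each point is an array, red at 15 days, and the line joins group means. In the first 14 panels the 15-day points lie below all points of 7 and 30 days; ABCA1 and MYLIP do not share this shape.

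The size of the recovery differed among the 14 genes. At 30 days, 8 of the 14 did not differ from 7 days by the test, and 6 were lower than at 7 days, among them STARD4, HSD17B7 and NSDHL. Against 24h, 8 of the 14 were lower at 15 days, 1 was higher (TM7SF2, which read 7.04 and 6.93 at 24h and 8.76 and 8.89 at 15 days), and 5 did not pass the test. Over all genes, 18.1% were lower and 19.3% higher at 15 days than at 24h, a comparison that again uses the same 15-day arrays. At least a 2-fold difference from each neighbour was reached by 7 of the 14. The count of 14 fell to 12 without replicate 1 of 15 days, to 11 without replicate 2 and to 13 without replicate 1 of 30 days. The calls that ended were those of PMVK and HSD17B7 without either 15-day array, and of STARD4 without replicate 2 of 15 days or replicate 1 of 30 days, with contrasts of -0.59, -1.23 and -1.37 without replicate 2 of 15 days.

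Of 32 measured genes of fatty acid and triglyceride metabolism, 6 were lower than both neighbours, 1 was higher and 25 were neither, and the median contrast of this list was -0.05. Over all genes tested, 0.725% were lower and 0.826% higher than both. The contrast alone was called lower in 7 of the 32 and higher in 4, against 2.26% and 3.55% of all genes. Among the 25, the acetyl-coenzyme A carboxylase ACACA had a contrast of 0.11 ± 0.17 (adjusted p = 0.85). SCD, the desaturase that makes oleic acid, read 10.28 and 10.23 at 7 days, 8.5 and 8.32 at 15 days and 10.31 and 10.61 at 30 days, a contrast of -1.95 ± 0.15. LPIN1, a phosphatidate phosphatase of triglyceride synthesis, read 7.11 and 7.33, then 5.81 and 5.90, then 6.97 and 7.05 (contrast -1.26 ± 0.11). Neither gene's difference between 7 and 30 days passed the test.

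The polyunsaturated fatty acid desaturases FADS1 and FADS2, neighbouring genes, had smaller dips (contrasts -0.71 ± 0.14 and -0.67 ± 0.12). ACLY, which supplies cytosolic acetyl-coenzyme A, read 10.09 and 10.04, then 8.83 and 8.74, then 9.29 and 9.33 (contrast -0.90 ± 0.09). FABP3, a fatty acid carrier, had a contrast of -1.29 ± 0.18, and its second probe set one of -0.97 with an adjusted p of 0.087 when every probe set was tested. The exception was CPT1A, which admits fatty acids into mitochondria for oxidation. It read 6.61 and 6.66 at 7 days, 7.11 and 7.31 at 15 days and 6.57 and 6.40 at 30 days, higher than both (contrast 0.65 ± 0.13), though its second probe set gave 0.41 (adjusted p = 0.112). Calls of FADS1 and FADS2 ended when any 1 of the 6 arrays was left out, with contrasts of -0.67 to -0.75 and -0.67 to -0.68. Those of ACLY and FABP3 ended without either 15-day array or replicate 2 of 30 days (contrasts -0.86 to -0.95 and -1.19 to -1.34), and that of CPT1A without any of the 5 arrays other than replicate 1 of 30 days (0.55 to 0.75).

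Further genes of lipid handling among the 79 lower genes were picked out after their values were seen, except ACSS2, PANK1, PLA2G3 and NPC1, which the naming rule gave. ACSS2, which makes acetyl-coenzyme A from acetate, read 7.79 and 7.56 at 7 days, 6.35 and 6.31 at 15 days and 7.47 and 7.52 at 30 days (contrast -1.25 ± 0.10). PANK1, which controls coenzyme A synthesis, had a contrast of -1.10 ± 0.11, and AACS, which activates acetoacetate, -1.09 ± 0.10. On the phospholipid side, PLA2G3, a secreted phospholipase, read 8.16 and 8.18, then 6.88 and 7.08, then 8.27 and 8.41 (contrast -1.27 ± 0.10). LPCAT3, which puts polyunsaturated chains into phospholipids, had a contrast of -1.20 ± 0.14, and the endothelial lipase LIPG -0.94 ± 0.12. For cholesterol entry and exit from lysosomes, NPC1 read 7.99 and 7.78, then 7.28 and 7.15, then 8.59 and 8.66 (contrast -1.04 ± 0.10), and the lipoprotein receptor SCARB1 had a contrast of -0.54 ± 0.09. MMAB, a vitamin B12 enzyme that is the neighbour of MVK, had a contrast of -1.05 ± 0.11. Without replicate 2 of 15 days the calls of NPC1, SCARB1 and AACS ended (contrasts -0.98, -0.55 and -1.04). Without replicate 1 of 15 days those of SCARB1, AACS and MMAB ended (-0.53, -1.14 and -0.95). The call of SCARB1 also ended without either 30-day array (-0.54 in both cases), and that of AACS without any single array of 7 or 30 days (-1.07 to -1.11).

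The deepest dip of any named gene was that of PTGS2, the inducible cyclooxygenase. It read 7.65 and 7.99 at 24h, 8.38 and 8.05 at 7 days, 5.44 and 5.20 at 15 days and 8.06 and 8.09 at 30 days. The 15-day arrays thus stood alone, and the contrast was -2.82 ± 0.14 (adjusted p = 1.93e-05). PTGS1, the cyclooxygenase usually described as constitutive, did the opposite. It read 6.34 and 6.39 at 7 days, 7.35 and 7.31 at 15 days and 6.52 and 6.39 at 30 days (contrast 0.92 ± 0.10), and kept its call when any 1 array was left out, as PTGS2 did. The terminal synthases had other shapes. PTGES, the prostaglandin E synthase, fell from 8.43 and 8.21 at 7 days to 7.12 and 7.09 at 15 days and to 6.57 and 6.43 at 30 days. PTGIS, the prostacyclin synthase, was higher at 15 days (8.09 and 8.22) than at 7 days (6.91 and 7.03), with 7.94 and 7.73 at 30 days and an adjusted p of 0.56 for 15 against 30 days. Of 17 measured genes of the prostaglandin and renin-angiotensin list, PTGS1 and PTGS2 were the transient ones. Among all genes tested, 0.826% were higher and 0.725% lower than both neighbours.

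**Figure D2:**
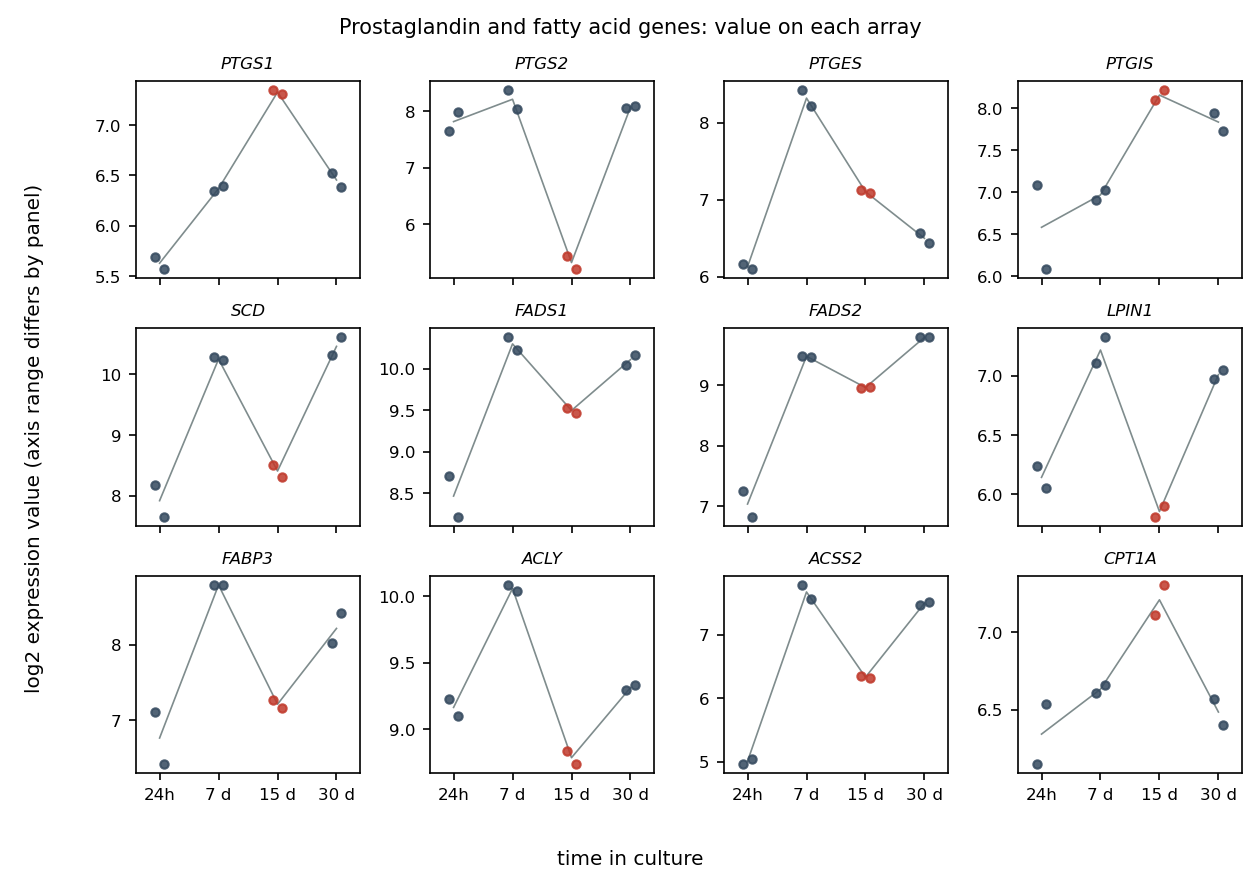
Log2 expression value (vertical axes, range set per panel) by time in culture for 4 prostaglandin genes and 8 fatty acid genes; each point is an array, red at 15 days, and the line joins group means. PTGS2 falls to 5.44 and 5.20 at 15 days while PTGS1 and CPT1A peak there, PTGES declines from 7 days on, and SCD, LPIN1 and ACSS2 dip and recover.

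Other genes that were low at 15 days included single genes of amino acid sensing, of stress responses and of glycolysis. RRAGD, a GTPase through which amino acids signal at the lysosome, read 6.70 and 6.39 at 7 days, 4.25 and 4.62 at 15 days and 6.21 and 6.29 at 30 days (contrast -1.97 ± 0.26). A second probe set of RRAGD, dimmer on average, gave -0.41 with an adjusted p of 0.163 when every probe set was tested, so the size of this dip depends on the probe set. CHAC1, a glutathione-degrading enzyme of the stress response, had a contrast of -0.96 ± 0.13, and DDIT3, a stress-induced transcription factor, -0.64 ± 0.10. They were the 2 transient genes among 24 of the unfolded protein response and amino acid stress list. Both were lower, as were 0.725% of all genes tested. That list as a whole did not dip, with a median contrast of 0.02. Its contrast was called lower in 4 genes and higher in 3, against 2.26% and 3.55% of all genes. HK1, the hexokinase of glycolysis, read 10.09 and 10.01, then 9.42 and 9.46, then 10.05 and 10.00 (contrast -0.60 ± 0.09). It was the single transient gene of 24 in the hypoxia and glycolysis list, of which 8 had a contrast called lower (2.26% of all genes tested) and 0 higher. In that list 13 genes were lower at 15 than at 7 days, while against 30 days 2 were lower and 3 higher. The list's median difference was -0.45 from 7 days and -0.06 from 30 days, against -0.03 and -0.01 over all genes.

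GATM, which makes the precursor of creatine, read 7.11 and 7.08 at 7 days, 5.94 and 5.71 at 15 days and 7.60 and 7.76 at 30 days (contrast -1.56 ± 0.14). KIF1A, a motor that carries vesicles along microtubules, had a contrast of -1.25 ± 0.17. DUSP4, a phosphatase that switches off MAP kinases, had -0.98 ± 0.10, and BNC1, a transcription factor of basal epithelium and mesothelium, -1.04 ± 0.12. FOXO3, a transcription factor active when insulin signalling is low, was noticed after its values were seen (contrast -0.74 ± 0.10). The subunit ATP6V1H of the proton pump that acidifies lysosomes had -0.58 ± 0.11. It and NPC1 were the 2 transient genes of 28 in the lysosome and autophagy list, whose median contrast was -0.21 (-0.02 over all genes). Both were lower, as were 0.725% of all genes tested. Leaving out replicate 1 of 15 days ended the calls of CHAC1, DDIT3, HK1, KIF1A and FOXO3 (contrasts -0.85, -0.59, -0.58, -1.21 and -0.70). Leaving out replicate 2 of 15 days ended those of DDIT3, HK1, DUSP4, BNC1, FOXO3, NPC1 and ATP6V1H (-0.69, -0.62, -0.92, -0.88, -0.77, -0.98 and -0.43). Calls also ended for BNC1 and ATP6V1H without either 30-day array (-1.03 to -1.05 and -0.57 to -0.59), for ATP6V1H without replicate 1 of 7 days (-0.53) and for DDIT3 without replicate 2 of 7 days (-0.61).

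Genes higher at 15 days than at both neighbours did not gather in any list to the extent seen for cholesterol synthesis. The gene with the largest smaller-of-both difference, over placeholder symbols too, was SERPINA3-2, which encodes a serpin protease inhibitor of the antichymotrypsin type. It read 2.81 and 3.31 at 24h, 5.52 and 5.67 at 7 days, 7.42 and 7.44 at 15 days and 4.25 and 4.02 at 30 days, a contrast of 2.57 ± 0.14 (adjusted p = 4.99e-05). VNN2, a membrane-anchored vanin, read 5.44 and 4.54 at 7 days, 8.47 and 8.30 at 15 days and 6.83 and 6.59 at 30 days (contrast 2.54 ± 0.25). SLC34A2, a sodium-phosphate transporter of epithelia, read 6.26 and 6.43, then 8.27 and 8.30, then 6.95 and 6.65 (contrast 1.71 ± 0.11). In each of the 3 genes both 15-day arrays exceeded the other 6 arrays of the series. SERPINB7, another serpin, read 5.50 and 5.38, then 6.54 and 6.28, then 4.22 and 4.28 (contrast 1.57 ± 0.11). Without replicate 2 of 30 days the call of VNN2 ended at a contrast of 2.47, while those of SERPINA3-2, SLC34A2 and SERPINB7 did not depend on any 1 array.

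Several of the genes high at 15 days make or cut extracellular matrix. HTRA3, a secreted protease, read 3.62 and 3.92 at 7 days, 5.61 and 5.22 at 15 days and 4.03 and 3.97 at 30 days (contrast 1.53 ± 0.13). ADAM12, a membrane metalloprotease, read 5.07 and 5.08, then 6.53 and 6.37, then 5.40 and 5.16 (contrast 1.28 ± 0.14). EFEMP1, a fibulin of elastic matrix, read 5.63 and 5.47, then 7.88 and 7.79, then 6.89 and 6.67 (contrast 1.66 ± 0.15). These 3 genes kept their calls with any 1 array left out. SHAS2, a symbol that RefSeq lists with the synonym Has2 for a hyaluronan synthase, had a contrast of 1.72 ± 0.29, and CHAD, a cartilage leucine-rich protein, 1.22 ± 0.25. Of 21 measured genes of collagens and collagen processing, COL15A1 (contrast 0.87 ± 0.14) and COL12A1 (0.75 ± 0.12) were transient and higher. Of 22 matrix proteases and plasminogen system genes, ADAM12 and ADAMTS1 (0.69 ± 0.09) were. Of 27 proteoglycan genes, GPC4, a cell surface glypican, was (0.70 ± 0.13). Among all genes tested, 0.826% were higher than both neighbours, and 1 gene in a list says little about that list.

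Several of these calls depended on single arrays. SHAS2 lost its call without any single array of 7 or 15 days (contrasts 1.68 to 1.77), and CHAD without replicate 1 of 7 days, either 15-day array or replicate 2 of 30 days (0.99 to 1.23). COL12A1 lost it without any single array of 7 or 15 days (0.71 to 0.78), and with the replicate number as a block (adjusted p = 0.055 for the weaker neighbour). COL15A1 lost it without replicate 2 of 7, 15 or 30 days (0.72 to 0.84). ADAMTS1 lost it without either 15-day array or replicate 1 of 30 days (0.65 to 0.70), and GPC4 without any array other than replicate 1 of 30 days (0.59 to 0.79).

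**Figure D3:**
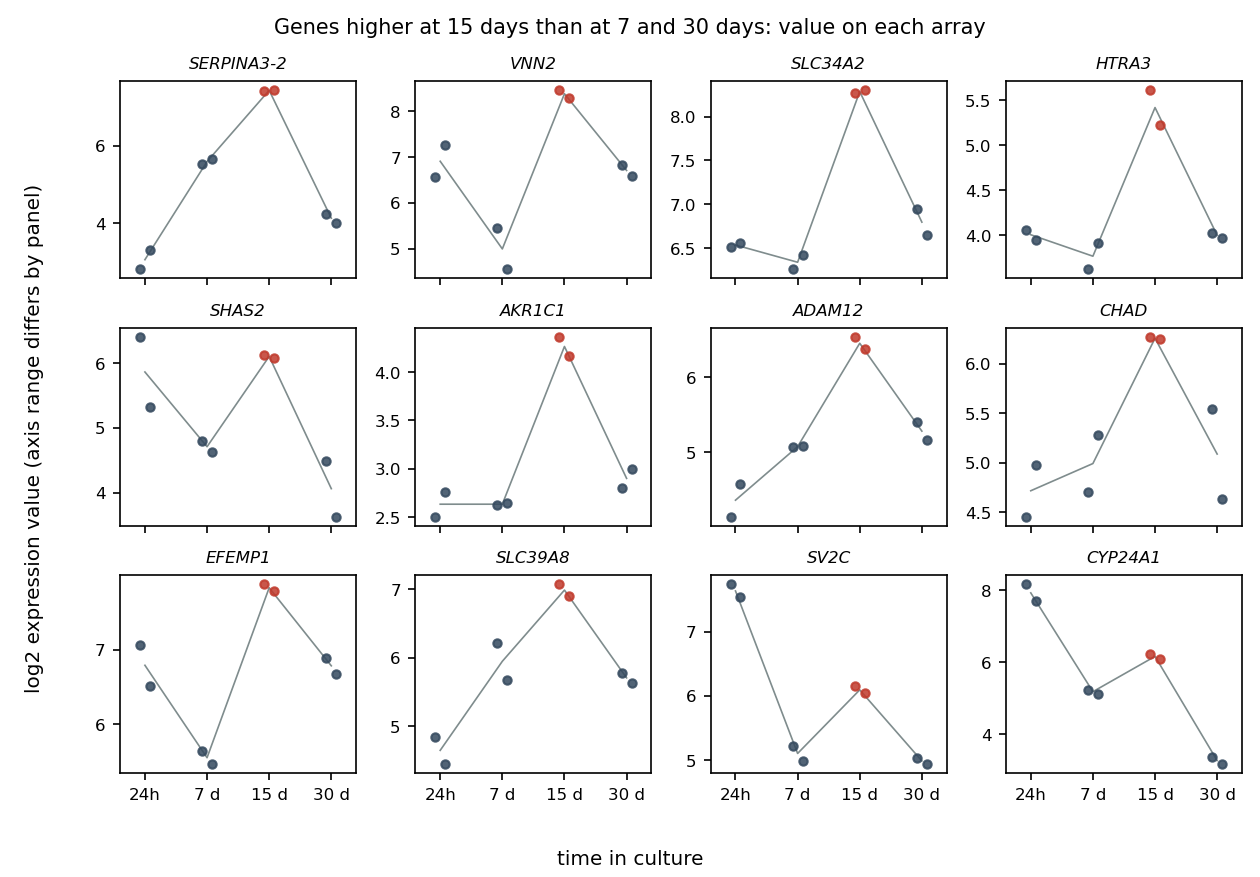
Log2 expression value (vertical axes, range set per panel) by time in culture for the 12 genes with the largest smaller-of-both increases at 15 days over 7 and 30 days, placeholder symbols left out; each point is an array, red at 15 days, and the line joins group means. SERPINA3-2, VNN2, SLC34A2, HTRA3, AKR1C1, ADAM12 and EFEMP1 are highest at 15 days of all 4 times, whereas SV2C and CYP24A1 are highest at 24h.

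Hormone and vitamin genes were among the higher ones. ESR1, the estrogen receptor through which estradiol acts on the oviduct, read 8.59 and 8.38 at 24h, 6.68 and 7.05 at 7 days, 8.13 and 8.11 at 15 days and 7.46 and 7.35 at 30 days (contrast 0.98 ± 0.12). All 4 probe sets of ESR1 moved the same way, with contrasts of 0.63 to 0.98. CCDC170, the gene next to ESR1, read 6.54 and 6.38, then 7.33 and 7.32, then 6.76 and 6.65 (contrast 0.74 ± 0.10). It was picked out after its values were seen, as a neighbour that was itself transient. CYP24A1, which inactivates vitamin D, read 5.24 and 5.13, then 6.24 and 6.09, then 3.36 and 3.18, with 8.17 and 7.70 at 24h (contrast 1.94 ± 0.14). AKR1C1, of a family of steroid-reducing enzymes, read 2.62 and 2.64, then 4.36 and 4.17, then 2.80 and 3.0 (contrast 1.5 ± 0.12). Its 2 other probe sets had identical values and a contrast of -0.07, so the increase rests on a single probe set, and with the mean of the probe sets its contrast was 0.45 and the call ended. AKR1C1 and ESR1 were the 2 transient genes of 17 in the list of hormone receptors and steroid enzymes. Both were higher, as were 0.826% of all genes tested. MAOA, the monoamine oxidase, had a contrast of 0.57 ± 0.14, with an adjusted p of 0.041. ESR1 and CCDC170 each lost the call without either 15-day array or replicate 2 of 30 days (contrasts 0.96 to 0.99 and 0.71 to 0.74), and MAOA without any array other than replicate 1 of 7 days (0.45 to 0.66).

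TGFB3, a transforming growth factor, read 3.99 and 4.22 at 7 days, 6.47 and 6.35 at 15 days and 5.92 and 4.95 at 30 days (contrast 1.64 ± 0.22). It was the transient gene of 36 in the TGF-beta and BMP list. Of 27 Wnt pathway genes, 3 were higher and 0 lower than both neighbours, where all genes tested gave 0.826% and 0.725%. FZD10, a Wnt receptor, read 4.37 and 4.51, then 5.67 and 5.49, then 4.72 and 4.68 (contrast 1.01 ± 0.10). The ligand WNT2B had a contrast of 1.08 ± 0.20 and the secreted Wnt inhibitor SFRP1 0.80 ± 0.15, so receptor, ligand and inhibitor were all higher. Of these, FZD10 kept its call with any 1 array left out. TGFB3 and SFRP1 lost it without any array other than replicate 1 of 30 days (contrasts 1.40 to 1.70 and 0.68 to 0.86), and WNT2B without any single array of 7 or 15 days (1.04 to 1.12).

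Semaphorins, secreted or membrane proteins that guide cells through plexin receptors, were noticed after the values were seen. Of 15 measured semaphorin genes, 3 were higher at 15 days than at both neighbours and 0 lower, and of 6 plexin genes 1 was higher. Over all genes tested, the shares were 0.826% higher and 0.725% lower. Both families were picked from these same values, so their counts are not evidence about the families. SEMA3A read 3.94 and 3.89 at 7 days, 5.74 and 5.61 at 15 days and 5.22 and 4.84 at 30 days (contrast 1.20 ± 0.13). SEMA3F had a contrast of 0.75 ± 0.13, SEMA6A 0.75 ± 0.10, and the receptor PLXND1 read 5.82 and 5.92, then 6.98 and 6.91, then 6.43 and 6.11 (contrast 0.87 ± 0.11). In SEMA3A and PLXND1 the 30-day arrays lay between those of 7 and 15 days. All 4 lost their calls without either 15-day array or replicate 2 of 30 days, and SEMA6A also without replicate 1 of 30 days. The contrasts then were 1.11 to 1.27 for SEMA3A, 0.64 to 0.79 for SEMA3F, 0.68 to 0.81 for SEMA6A and 0.79 to 0.91 for PLXND1.

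The ion transporter SLC39A8 had a contrast of 1.16 ± 0.17, the synaptic vesicle protein SV2C 1.04 ± 0.11 and the phosphatase-like MTMR11 0.98 ± 0.14. CDH2, the cadherin of mesenchymal cells (contrast 0.54 ± 0.10), and SFRP1 were the 2 transient genes of 22 in the fibroblast and mesenchyme list. Both were higher, as were 0.826% of all genes tested. SOX17, a transcription factor found in endothelium and in oviductal epithelium, read 6.38 and 6.64 at 7 days, 7.11 and 7.20 at 15 days and 6.58 and 6.37 at 30 days (contrast 0.66 ± 0.11). It was the single transient gene of 12 in the endothelial list, a count that says little about that list. The mean over 4 defining endothelial markers stayed between 3.62 and 4.35 on all arrays. That mean covers unlike members. From 7 to 15 days the group mean of PECAM1 rose from 4.18 to 5.11, of KDR from 3.31 to 3.70 and of TEK from 3.23 to 3.37. VWF fell from 3.83 to 3.60, and 0 of the 4 were transient. The immediate early factor EGR1 (0.87 ± 0.18) and the coagulation inhibitor TFPI (0.62 ± 0.11) were higher as well. Without replicate 1 of 15 days, the calls of SLC39A8, MTMR11, CDH2, SOX17, EGR1 and TFPI ended (contrasts 1.08, 0.89, 0.61, 0.71, 0.96 and 0.48). Without replicate 2 of 30 days, those of MTMR11, CDH2, SOX17, EGR1 and TFPI ended (0.95, 0.49, 0.61, 0.82 and 0.64). Calls also ended without replicate 2 of 15 days for CDH2, SOX17 and EGR1 (0.47, 0.62 and 0.78), without replicate 1 of 7 days for SOX17 and EGR1 (0.60 and 0.73), and without replicate 1 of 30 days for EGR1 and TFPI (0.92 and 0.59).

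**Figure D4:**
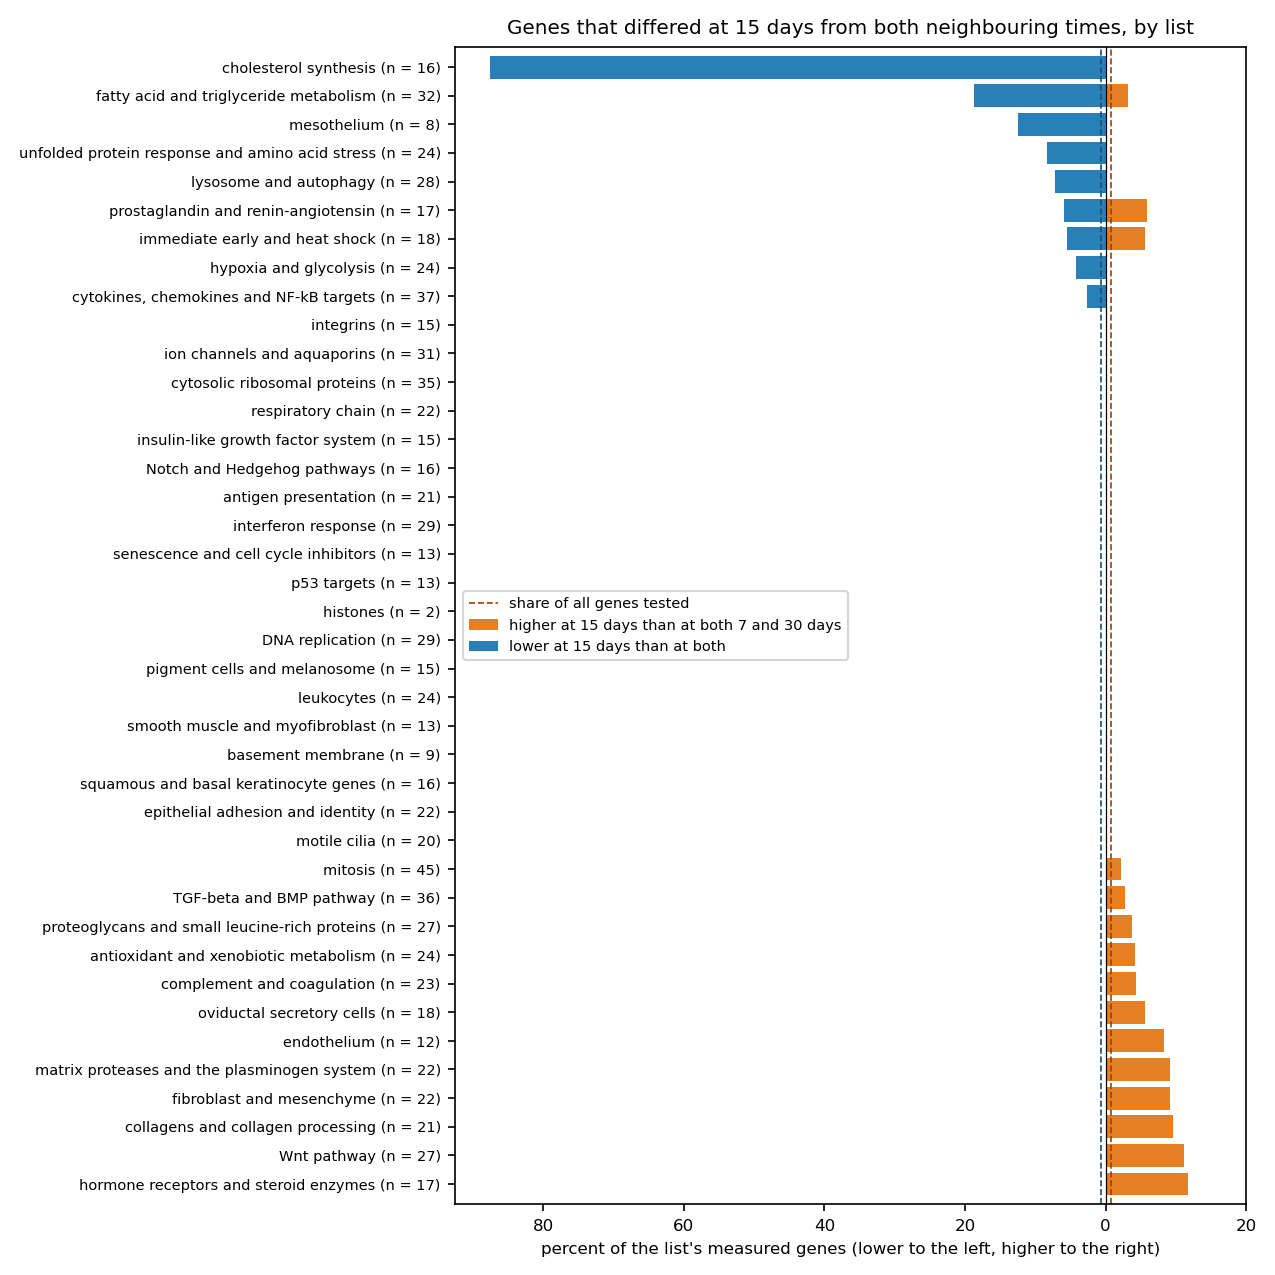
Percent of the measured genes of each of the 40 lists that were higher (orange, to the right) or lower (blue, to the left) at 15 days than at both 7 and 30 days; n is the number measured, and the dashed lines mark 0.826% and 0.725%, the shares over all genes tested in the same directions. Cholesterol synthesis, with 14 of 16 genes lower, stands far to the left of the other lists.

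The contrast alone did not separate a peak from a change in a single direction. It called 633 genes, 5.81% of those tested, with 387 higher (3.55%) and 246 lower (2.26%). Of the 387 higher genes, 90 were transient, 135 differed from 7 days only, 137 from 30 days only and 25 from both in opposite directions. Of the 246 lower genes, 79 were transient, 105 differed from 7 days only, 49 from 30 days only and 13 from both in opposite directions. Centring each array on its median turned the split into 319 higher and 357 lower for the contrast, and into 70 higher and 110 lower transient genes. Leaving out replicate 1 or 2 of 15 days brought the contrast to 156 and 206 genes.

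Some calls of the genes described in these comparisons ended under another processing with all arrays of 7, 15 and 30 days kept. Adjusting over every probe set in place of every gene ended those of SHAS2, CHAD, TGFB3, SFRP1, COL12A1, ASPM, EGR1, WNT2B, MAOA, CPT1A, FADS1, FADS2, AACS, SEMA3A and SEMA6A, with adjusted p-values of 0.051 to 0.094 for the weaker neighbour. Median centring ended those of TGFB3, CDH2, EGR1, MAOA and SEMA6A (contrasts 1.57, 0.47, 0.81, 0.51 and 0.68). A further quantile normalization ended those of FADS1 and SEMA3A (-0.65 and 1.12), and a trended robust variance those of ASPM and AACS (1.40 and -1.09). The fit of the 6 arrays without 24h ended that of MAOA (adjusted p = 0.059 for the weaker neighbour). All 14 cholesterol genes, PTGS1 and PTGS2 kept their calls under these alternatives.

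Mitosis genes illustrate the distinction. Of 45 measured, 31 had a contrast called higher and 0 lower, against 3.55% and 2.26% of all genes tested. The median contrast was 0.91, yet 1 gene was transient, where 0.826% of all genes were higher than both neighbours. The list's median level was 6.60 at 7 days, 6.59 at 15 days and 4.12 at 30 days, so the contrast reflected a fall after 15 days. Against 30 days, 43 of the 45 were higher at 15 days, while against 7 days 1 was higher and 3 were lower. The list's median difference was 1.82 from 30 days and -0.12 from 7 days, against -0.01 and -0.03 over all genes. ASPM, which organises the spindle poles, was the transient member. It read 5.56 and 5.43, then 5.93 and 5.89, then 3.60 and 3.45, so its difference from 7 days (0.42 ± 0.11) was far smaller than that from 30 days (2.39 ± 0.11), and its call ended without any single array of 7 or 15 days (contrasts 1.37 to 1.44). Of 29 DNA replication genes, 9 had a contrast called higher and 0 were transient.

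**Figure D5:**
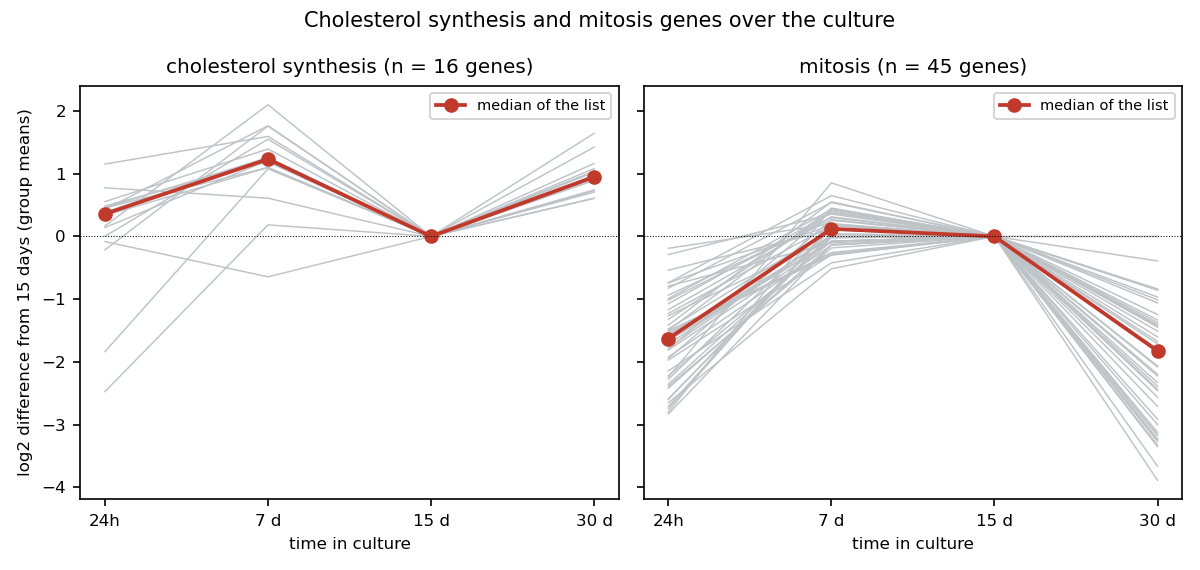
Difference of each gene's group mean from its 15-day mean (log2, vertical axis) by time in culture for the 16 cholesterol synthesis genes and the 45 mitosis genes; grey lines are genes and the red line is the median of the list. The cholesterol median is 1.23 higher at 7 days and 0.95 higher at 30 days than at 15 days, whereas the mitosis median is 0.12 higher at 7 days and 1.82 lower at 30 days.

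Set beside the start of culture, the higher and lower transient genes differed in where they stood. Of the 90 higher genes, 70 were also higher at 15 days than at 24h, 7 were lower and 13 did not pass the test. Of the 79 lower genes, 22 were higher than at 24h, 32 were lower and 25 did not pass the test. Over all genes tested, 19.3% were higher and 18.1% lower at 15 days than at 24h. The comparison with 24h uses the same 15-day arrays that picked the genes. A tilt in the direction of the call is therefore partly built in. Among the 90, 26 differed between 7 and 30 days, and among the 79, 27 did. The smaller of both differences had a median of 0.67 in the higher genes and 0.69 in the lower genes, and 14 and 17 genes differed at least 2-fold from both neighbours. The number of transient genes was 0 among 20 motile cilia genes, 22 epithelial adhesion and identity genes, 13 smooth muscle genes, 24 leukocyte genes and 29 interferon response genes. It was also 0 among 35 cytosolic ribosomal protein genes and 22 respiratory chain genes. Over all genes tested, 0.826% were higher and 0.725% lower than both neighbours. A count of 0 is near these shares and does not set the lists apart. The contrast alone was called higher in 4 of the 13 smooth muscle genes. In the 22 epithelial genes it was called higher in 5 and lower in 3. Among all genes tested, the contrast was called higher in 3.55% and lower in 2.26%.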

How the data were processed

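RNA from cultured pig oviductal epithelial cells was measured on 1-colour Affymetrix arrays, 2 at each of 4 times. The deposited log2 values, which the authors made with RMA per the submitters' processing notes, give each probe set 1 number on each array. RMA brings the arrays to a common distribution and can hide a shift shared by most genes. Its version, the annotation build and any filter are not given in the sources that were used, and no detection calls were used.

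Names came from the platform annotation and were compared by identifier with RefSeq genes of Sscrofa11.1, which served for names and gene order only. The 27558 probe sets comprised 11968 with 1 symbol, 379 that were dropped for several or conflicting symbols, and 15211 with no name here. For 966 genes with several probe sets the one with the highest mean was kept, leaving 10901 genes, of which 1053 carried placeholder symbols.

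limma 3.58.1 in R 4.3.3 (lmFit, eBayes) was fitted to all 8 arrays with 1 mean per time (4 residual degrees of freedom). Benjamini-Hochberg adjustment ran over all genes tested, and errors are SEs. Named genes were the 15 in each direction with the largest smaller-of-both difference (placeholder symbols left out), up to 4 transient members of each of 40 lists, and 4 tissue markers. Others are described as chosen after their values were seen. The members and lists were chosen with earlier results of these data known. Besides the main fit, alternatives changed centring, normalization, filtering, probe set choice, variance model, arrays used, the replicate block and the call rule. In data simulated from these arrays with 100 genes raised and 100 lowered by 1 at 15 days, the fit of 10901 genes called 84 and 73 of them, and 2 of 10701 unchanged genes. Apart from the added changes, each simulated gene had 1 flat mean over time with independent noise and no shared array error. The real arrays differ in this, so the simulated counts give no rate of false calls for the transient genes. Between the arrays of a time, 2 to 76 genes lay over 1 log2 apart, and the number of arrays limits the precision. Promoter and protein sequences were not used here.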

Additional observations from a re-analysis of the deposited data

How the results depend on the processing

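The 14 cholesterol synthesis genes remained 14 by count under each alternative added after the data were seen, other than leaving out an array (11 to 14) and asking for at least a 2-fold difference from each neighbour (7). Counts of transient genes depended on the rule. Requiring the contrast to be called and the 15-day mean to lie beyond both means gave 267 higher and 196 lower genes, and at least 2-fold from each neighbour gave 14 and 17. Leaving out 1 array gave 19 to 81 higher genes, 32 to 67 lower genes and 156 to 561 genes with a called contrast; the lowest counts came without a 15-day array, where the time is left with 1 array that is assumed to vary like the others. Higher genes numbered 58 without replicate 2 of 7 days, and lower genes 50 without replicate 1 of 30 days. Median centring gave 70 higher and 110 lower transient genes, of which 68 and 77 were among the main 90 and 79. Same-numbered arrays deviated together weakly (r of 0.0080 to 0.27 over genes), so the numbers were not taken to pair the samples; with the replicate block the contrast called 687 genes, of which 109 and 78 were transient higher and lower, and 14 cholesterol genes. In 1168 comparisons of a named gene with an alternative, 0 reversed direction. The genes were picked for their direction on these same arrays, so this was largely fixed in advance and adds no support. Of the 700 comparisons that did not leave out an array, 31 lost the call. Calls were lost more often when an array was left out, as given with the genes above.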

Other observations

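Of the 90 genes higher at 15 days than at both neighbours, 7 carry placeholder symbols, and 5 of them lie near each other. In the RefSeq order of protein-coding genes of Sscrofa11.1, LOC100157763, LOC100154071 and LOC100154508 stand 2, 4 and 8 places to one side of ZNF184, and LOC595122 and LOC100155734 stand 30 and 32 places to the other side. LOC100157763 read 9.11 and 9.40 at 7 days, 10.61 and 10.58 at 15 days and 6.79 and 5.88 at 30 days. LOC100154071 read 7.66 and 7.72, then 8.98 and 8.88, then 4.24 and 4.36. All 5 read lower at 30 days than at 7 days, with contrasts from 1.36 (LOC595122) to 2.93 (LOC100154071). These genes were picked out after their values were seen, and probes shared between like copies were not examined.

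Other transient genes were also next to each other in that order. Only neighbours that were both transient were looked for, so how often neighbours differ was not counted. SERPINA3-2 and GSC, a homeobox factor, were both higher, with a contrast of 0.80 ± 0.15 for GSC. CPE, a carboxypeptidase of hormone processing, was higher (0.65 ± 0.09) while its neighbour MSMO1 was lower (-1.15 ± 0.10). The calls of GSC and CPE ended without either 15-day array or replicate 2 of 30 days (contrasts 0.67 to 0.80 and 0.59 to 0.71). That of GSC also ended without replicate 1 of 7 days (0.76), and that of CPE without replicate 1 of 30 days (0.63). With all arrays kept, the call of GSC ended when every probe set was tested (adjusted p = 0.057 for the weaker neighbour). That of CPE ended with median centring (contrast 0.58), with further quantile normalization (0.58) and with the mean of its probe sets (0.38). The second probe set of CPE gave a contrast of 0.11 (adjusted p = 0.75).

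Among all 27558 probe sets, 109 were higher and 93 lower at 15 days than at both neighbours, and 53 and 34 of these are not among those that stand for a named gene.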
